A study of Mus musculus with 90 samples.

Results

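Acyl-CoA thioesterases split fatty acyl-CoA into a free fatty acid and coenzyme A. The family members followed here are *Acot1*, *Acot2*, *Acot3*, *Acot4*, *Acot9*, *Acot11*, *Acot12* and *Acot13*, taken by gene symbol from the count tables of a mouse liver RNA-seq series, 8 genes of 27654 measured. Acyl-CoA synthetases run the opposite reaction, so the balance of the 2 enzyme groups sets how much fatty acid is held in its activated form. In liver the thioesterases are spread over compartments: *Acot1* works in the cytosol, *Acot2* and *Acot9* in mitochondria, and *Acot3* and *Acot4* in peroxisomes, where *Acot4* cleaves succinyl-CoA. *Acot12* hydrolyses acetyl-CoA in the cytosol, *Acot11* (also Them1) carries a lipid-binding START domain, and *Acot13* (also Them2) pairs with phosphatidylcholine transfer protein; several family genes are established targets of the fasting receptor PPARα.

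The series asked how the hepatic glucocorticoid receptor takes part in the daily response to caloric restriction, in bulk liver of adult male C57BL/6J mice on chow. In the time series, GRfl/fl mice (written WT below) and GRfl/fl × Alb-Cre mice (GRLKO), in which the albumin promoter drives Cre in hepatocytes and leaves other liver cells with the receptor, were sampled at zeitgeber times ZT0, ZT4, ZT8, ZT12, ZT16 and ZT20, with lights off at ZT12. Calories were cut in steps to an end point of 40% less in 36 of these livers (3 a group), and 42 came from night-restricted feeding, the control (3 or 4 a group). The 2 other experiments used wild-type mice at ZT12: 3 livers on caloric restriction against 3 controls, whose titles read AL although their label reads night-restricted feeding, and 3 livers of mice injected intraperitoneally with corticosterone each day for a week against 3 controls labelled night-restricted, which by the methods of the study received vehicle. Both names of the diet controls fit the methods of the study. Control mice ate ad libitum until the last week, when food was limited to the dark phase. Restricted mice received their daily food at ZT12, so livers at ZT12 come from the end of fasting and those at ZT16 from after feeding. The 2 diets of the time series were deposited as separate tables, so that diet and batch of libraries cannot be told apart there. The effect of diet is therefore taken from the ZT12 experiment, and values set side by side across the 2 diets of the time series carry the batch as well.

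Values are CPM, counts scaled to the TMM-normalized size of each library, and a gene is called when its Benjamini-Hochberg adjusted p over all tested genes was under 0.05 in edgeR. Shares of all genes given for comparisons of groups are those called by edgeR in this way. Members and lists were chosen with earlier results of these data known. A share is therefore given for scale only, and an excess of called members over it is no test of the family. Counts of members by unadjusted p or by DESeq2, counts after leaving out libraries, and groups without overlap have no such share beside them. They are therefore no result about the family. The genotype labels were checked on *Nr3c1*, which encodes the receptor. At ZT12 on caloric restriction its level was 102, 98.03 and 104 CPM in WT and 31.01, 32.2 and 30.8 CPM in GRLKO livers, so every knockout liver was below every control. The log2 fold change there was -1.70 ± 0.07 (SE), and on control feeding at ZT12 it was -1.98 ± 0.10. *Fkbp5*, an established glucocorticoid target, was called higher under corticosterone, by 2.63 ± 0.35, and on caloric restriction, by 2.36 ± 0.24. The tissue label was checked on 7 hepatocyte markers, none of which was at 0, with *Alb* the most abundant.

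Several libraries held RNA of neighbouring tissue. The 5 markers of exocrine pancreas summed to 596 CPM in WT replicate 3 at ZT12 on caloric restriction and to 305 CPM in WT replicate 2 at ZT16 on control feeding, and the next highest of the 90 libraries held 1.73 CPM. The 5 skeletal muscle markers, led by *Acta1*, summed to 139 CPM in GRLKO replicate 1 at ZT12 on caloric restriction, against at most 14.2 CPM elsewhere. Counts without these libraries are given for the genotype comparisons at ZT12 on restriction and at ZT16 on control feeding; the other values from these groups include them.

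All 8 members passed the filter on low counts in every comparison. Per kilobase of the longest coding transcript in the annotation, the control-fed WT livers of the time series at ZT12 (n = 4, SD) held most *Acot13*, 57.9 ± 3.58 CPM per kb, then *Acot12*, 46.9 ± 4.98, and *Acot4*, 9.998 ± 2.87. The remaining 5 followed at 2.99 ± 1.97 for *Acot1*, 1.87 ± 1.32 for *Acot3*, 1.8 ± 0.693 for *Acot11*, 1.1 ± 0.423 for *Acot2* and 0.95 ± 0.142 for *Acot9*, where neighbours in the order lie within their spread. In calorie-restricted GRLKO livers at ZT12 (n = 3) the order was another: *Acot13* at 131 ± 3.31 and *Acot4* at 126 ± 13.9 did not differ beyond their spread, *Acot3* stood at 98.1 ± 3.07, and *Acot12* came after them at 63.5 ± 2.51.

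*Acot1* to *Acot4* share reads because they are close copies in 1 cluster. On GRCm38 the 6 genes *Acot1* to *Acot6* lie on chromosome 12 within 123 kb: *Acot2* (ENSMUSG00000021226, chr12:83987861-83993873, plus strand), *Acot1* (ENSMUSG00000072949, chr12:84009490-84018371, plus strand), *Acot4* (ENSMUSG00000052392, chr12:84038379-84048601, plus strand) and *Acot3* (ENSMUSG00000021228, chr12:84052144-84060402, plus strand) come first along the strand. Elsewhere are *Acot9* (ENSMUSG00000025287, chrX:155262443-155297654, plus strand), *Acot11* (ENSMUSG00000034853, chr4:106744555-106804998, minus strand), *Acot12* (ENSMUSG00000021620, chr13:91741512-91786148, plus strand) and *Acot13* (ENSMUSG00000006717, chr13:24817948-24831540, minus strand). In global alignments the coding sequence of *Acot1* was identical to that of *Acot2* over 85.6% of aligned positions, to *Acot3* over 81.5% and to *Acot4* over 73.6%. Of the 31-base words in the longest *Acot1* transcript, 39.2% also occur in transcripts of other genes, 29.2% in *Acot2*. For *Acot2* the share was 37.8%, for *Acot3* 25.6%, for *Acot4* 19.3%, for *Acot9* 36.9%, all of it with *Acot10*, and for *Acot11* 20.9%, of which most with *Fam151a* (20.3% of its words), an overlapping gene that is in the count tables. *Acot13* shared none. A coding locus that overlaps both *Acot4* and *Acot3*, *Gm49366*, and an antisense locus, *4732463B04Rik*, have no entry in the count tables. *Gm49366* shares words with *Acot3*, and the antisense locus shares most with *Acot4* (12.2% of the words of *Acot4*), then with *Acot3* (8.32%), *Acot1* (7.83%) and *Acot2* (2.92%). How the counting step divided such reads cannot be read from the tables, so the 4 genes are also given as a sum.

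On caloric restriction at ZT12, 4 members of the wild-type diet experiment rose and 1 fell. The cytosolic *Acot1* stood at 12.2, 13.5 and 11.7 CPM in the 3 control livers and at 28.5, 49.4 and 64.9 CPM in the 3 restricted livers. All restricted livers were above all controls, by a log2 fold change of 1.93 ± 0.28 (SE; adjusted p = 0.00164). The peroxisomal *Acot3* went from 17.2, 41.5 and 30.9 CPM to 114, 207 and 233 CPM, again with no overlap and the largest difference of the 8 members in this test, 2.63 ± 0.37 (adjusted p = 0.00164). *Acot4*, its neighbour, read 100.03, 139 and 143 CPM on control feeding and 199, 278 and 319 CPM on restriction. The groups did not overlap and differed by 1.06 ± 0.20 (adjusted p = 0.00502). *Acot13* moved within a narrow band, from 33.9, 34.6 and 32.4 CPM to 48.6, 45.8 and 44.8 CPM, and was higher in 3 of 3 livers by 0.46 ± 0.07 (adjusted p = 0.00163). *Acot11* went the other way, 12.1, 14.2 and 15.5 CPM in controls against 4.52, 5.61 and 5.13 CPM. It was lower in 3 of 3 restricted livers, with a log2 fold change of -1.45 ± 0.13 (adjusted p = 0.000333).

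The other 3 members were not called. The mitochondrial *Acot2* read 8.36, 9.77 and 6.87 CPM in controls and 7.54, 11.1 and 28.5 CPM on restriction, so that 1 restricted liver was high, 1 was inside the control range and the log2 fold change of 0.91 ± 0.46 had an adjusted p of 0.142. *Acot12*, the acetyl-CoA hydrolase, differed by 0.18 ± 0.08 (adjusted p = 0.0869), and *Acot9* by 0.02 ± 0.16 (adjusted p = 0.927). The diet changed much of the transcriptome: 47.1% of all tested genes were called, so 5 of 8 members is near the background and is no result about the family as a group. With WT libraries of the time series at ZT12 in place of the diet experiment, which brings in the batch, *Acot1* was at 13.3, 6.01, 4.2 and 3.6 CPM on control feeding and 9.18, 7.18 and 6.67 CPM on restriction; its log2 difference was 0.17 (adjusted p = 0.785) and the call was lost, while the 4 other calls stood.

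**Figure D1:**
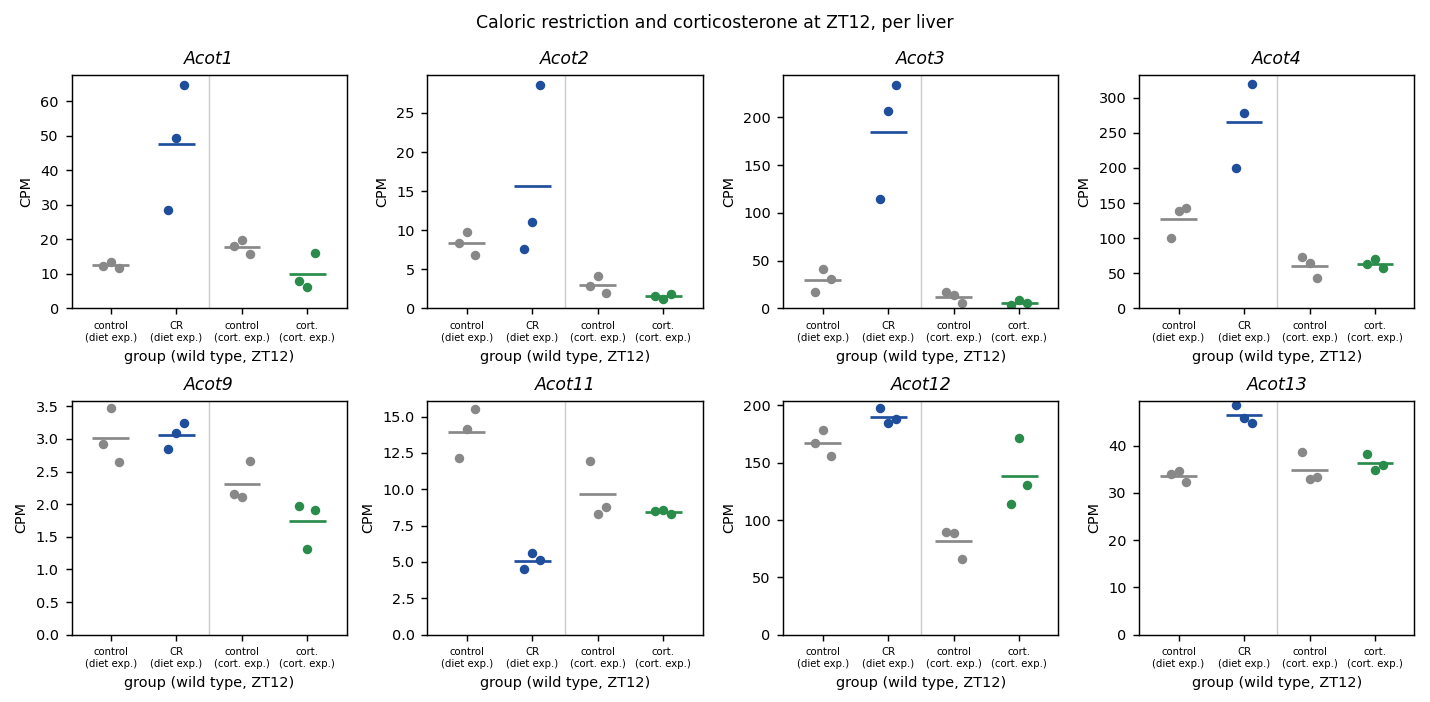
CPM (vertical axes, from 0) of each member in the 3 livers of each wild-type group at ZT12, 1 point a liver and a bar at the mean, with the diet experiment left and the corticosterone experiment right of the grey line. The 3 restricted livers of *Acot3* lie at 114, 207 and 233 CPM, above the 3 controls, and the corticosterone-treated livers lie at 3.79, 8.31 and 6.09 CPM.

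Under corticosterone at ZT12 none of the 8 members was called by edgeR, where 8.11% of all tested genes were; 3 members had an unadjusted p under 0.05, and DESeq2 called 1. *Acot12* was closest: 89.7, 89.1 and 66.3 CPM in the night-restricted controls and 114, 171 and 130.4 CPM in treated livers. All 3 treated livers were above the controls, and the log2 fold change of 0.76 ± 0.18 had an adjusted p of 0.0503. Treated replicate 2, at 171 CPM, was least like the other treated livers by a chi-square per degree of freedom between libraries. It was 50.4 and 52.8 with replicates 1 and 3, and 14.7 between those. A pair of control-fed WT livers at ZT0 reached 110.5. *Acot1* read 18.2, 19.8 and 15.7 CPM in controls and 7.96, 6.2 and 15.9 CPM in treated livers. Here 2 treated livers were low and replicate 3 was inside the control range, for a log2 fold change of -0.84 ± 0.32 (adjusted p = 0.159); without that treated replicate 3, 1 member was called. *Acot2* (2.88, 4.1 and 1.91 CPM against 1.59, 1.25 and 1.85 CPM) had a log2 fold change of -0.92 ± 0.35 (adjusted p = 0.15), with every treated liver below the controls. For *Acot3* it was -1.004 ± 0.45 (adjusted p = 0.213), with overlap between 17.5, 13.9 and 5.33 CPM and 3.79, 8.31 and 6.09 CPM. *Acot4*, *Acot9*, *Acot11* and *Acot13* had log2 fold changes of 0.07, -0.42, -0.19 and 0.05.

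Whether the diet effect and the corticosterone effect differ was tested directly, as the difference of the 2 log2 fold changes over both experiments, a comparison chosen after seeing the data. It called 5 of 8 members against 22.5% of all genes. The difference was 3.64 ± 0.65 for *Acot3* (adjusted p = 0.00269) and 2.78 ± 0.47 for *Acot1* (adjusted p = 0.00207). *Acot11*, lower on restriction, differed by -1.25 ± 0.21 (adjusted p = 0.00217), and *Acot13* by 0.42 ± 0.11 (adjusted p = 0.0167). For *Acot4* the value was 1.00 ± 0.31 (adjusted p = 0.0373), and leaving out any of control replicates 1 and 2 or restricted replicates 2 and 3 of the diet experiment, or control replicates 1 and 2 or treated replicates 1 and 3 of the corticosterone experiment, ended that call, with adjusted p from 0.0559 to 0.0903. *Acot2* (1.86 ± 0.67, adjusted p = 0.0693), *Acot12* (-0.57 ± 0.21, adjusted p = 0.0806) and *Acot9* (0.46 ± 0.29, adjusted p = 0.291) were not called.

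In calorie-restricted livers at ZT12, 4 members were higher without hepatocyte glucocorticoid receptor: the mitochondrial *Acot2*, the peroxisomal *Acot3* and *Acot4*, and *Acot13*. *Acot4* read 249, 233 and 273 CPM in WT and 686, 857 and 794 CPM in GRLKO livers. Every GRLKO liver was far above every WT liver, and the log2 fold change was 1.62 ± 0.11 (SE; adjusted p = 0.00035). *Acot3* stood at 113, 99.3 and 168 CPM in WT and at 330.2, 349 and 331 CPM in GRLKO livers, higher in 3 of 3 by 1.40 ± 0.19 (adjusted p = 0.00392). *Acot2* was scarcer, 5.12, 4.53 and 6.67 CPM against 13.2, 19.2 and 24.1 CPM. Its groups did not overlap either, with a difference of 1.78 ± 0.25 (adjusted p = 0.00467). *Acot13* had 48.4, 56.3 and 53.8 CPM in WT and 96.9, 92.1 and 94.6 CPM in GRLKO livers, and its log2 fold change was 0.83 ± 0.08 (adjusted p = 0.00139).

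The 4 called members compare with 15.3% of all tested genes, and the count stayed at 4 with any 1 of the 6 libraries left out, among them WT replicate 3 with its pancreas RNA and GRLKO replicate 1 with its muscle RNA. *Acot12* was lower in every GRLKO liver, 234, 255 and 221 CPM against 190.0, 203 and 189.5 CPM, without passing the test (-0.29 ± 0.09, adjusted p = 0.0632). *Acot1* differed by 0.06 ± 0.35, *Acot9* by 0.53 ± 0.28 and *Acot11* by -0.39 ± 0.35; none of the 3 was called. Cell type markers moved in the same livers. Of 7 Kupffer and myeloid markers 4 were called higher in GRLKO, their sum being 56.0 CPM in WT (lowest 44.6, highest 71.6) and 116 CPM in GRLKO livers (100.2 to 125), with *Clec4f* the most abundant and none at 0. Of 7 hepatocyte markers 5 were called lower, with sums of 166308 and 125122 CPM. Their part in the result was not tested. In bulk liver a changed number of cells of a type and a changed marker level per cell cannot be told apart. From single nuclei the study reports that the make-up of major liver cell types was altered by neither diet nor deletion.

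At ZT16 on caloric restriction, 4 h after lights off, 5 members were called, against 4.54% of all genes. *Acot13* read 43.7, 48.2 and 46.7 CPM in WT and 104, 99.6 and 97.1 CPM in GRLKO livers, with no overlap, and the difference was 1.12 ± 0.08 (adjusted p = 0.000846). *Acot2*, at 9.27, 8.23 and 10.4 CPM and 18.7, 19.0 and 22.5 CPM, was higher in 3 of 3 GRLKO livers by 1.10 ± 0.13 (adjusted p = 0.00445). *Acot4* ran from 193, 219.9 and 208 CPM to 353, 376 and 481 CPM. Its groups stayed apart and differed by 0.96 ± 0.13 (adjusted p = 0.00777). *Acot3* had 144, 186 and 151 CPM in WT and 306, 375 and 275 CPM in GRLKO livers, a difference of 0.99 ± 0.15 (adjusted p = 0.0123), which was 0.0599 without WT replicate 1 and 0.161 in 1 fit over all libraries of the diet. In *Acot11*, 12.9, 9.65 and 11.7 CPM in WT stood against 4.85, 6.66 and 6.64 CPM. This START-domain member was lower in 3 of 3 GRLKO livers, with a log2 fold change of -0.92 ± 0.18 (adjusted p = 0.029), and without any 1 of WT replicates 1 and 3 and GRLKO replicates 1, 2 and 3 the adjusted p was 0.0688 to 0.114. *Acot1* (-0.66 ± 0.26, adjusted p = 0.213), *Acot9* (0.56 ± 0.22, 0.212) and *Acot12* (0.08 ± 0.11, 0.763) were not called. Without WT replicate 1, 3 members were called.

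At ZT8 on restriction 2 members were called, where 2.55% of all genes were. *Acot3* read 151, 85.4 and 78.2 CPM in WT and 338, 263 and 236 CPM in GRLKO livers (1.42 ± 0.26, adjusted p = 0.0404). *Acot2* read 4.2, 3.47 and 2.91 CPM and 7.8, 6.06 and 7.24 CPM (1.00 ± 0.19, adjusted p = 0.0419). Neither pair of groups overlapped, but both calls were lost without any 1 of GRLKO replicates 1, 2 and 3 and WT replicates 2 and 3, at adjusted p of 0.0885 to 0.143 for *Acot3* and 0.0841 to 0.168 for *Acot2*. *Acot4* was higher in 3 of 3 GRLKO livers without being called (0.78 ± 0.20, adjusted p = 0.0952), and *Acot11* was lower in 3 of 3 (-1.05 ± 0.26, adjusted p = 0.0964).

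At ZT20 on restriction *Acot1* was the 1 member called, beside 1.47% of all genes. This cytosolic enzyme read 9.42, 9.13 and 11.4 CPM in WT and 2.5, 1.85 and 3.72 CPM in GRLKO livers. It was lower in 3 of 3 GRLKO livers, with a log2 fold change of -1.86 ± 0.26 (adjusted p = 0.0239), the opposite direction to *Acot2* in the same livers, 0.91 ± 0.20 (adjusted p = 0.082). The call was lost without WT replicate 1, 2 or 3 or GRLKO replicate 1, at adjusted p of 0.102, 0.0801, 0.116 and 0.0509. The sum of *Acot1* to *Acot4* differed by 0.57 ± 0.29 there (adjusted p = 0.331); *Acot1* was 7.37 ± 2.56% of it in WT livers, so the sum says little about this gene.

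At ZT0 and ZT4 on restriction edgeR called 0 members. At ZT0 edgeR called 0.502% of all genes. That share is no background for the 5 members with an unadjusted p under 0.05 or the 3 called by DESeq2. The lowest adjusted p in edgeR was that of *Acot2*, 0.058, with a log2 fold change of 1.07 ± 0.17. At ZT4 edgeR called 0.69% of all genes, again no background for the 5 members with an unadjusted p under 0.05. DESeq2 called 0 members at ZT4. *Acot1* differed there by -0.78 ± 0.21 and *Acot3* by 0.82 ± 0.38.

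On control feeding at ZT12 the peroxisomal pair was higher in GRLKO livers. *Acot3* read 12.9, 6.31, 3.41 and 3.12 CPM in WT and 78.4, 34.4, 93.8 and 48.9 CPM in the 4 GRLKO livers. The lowest GRLKO liver was above the highest WT liver, the log2 fold change was 3.32 ± 0.48 (adjusted p = 0.00984), and the call stood with any 1 of the 8 libraries left out. *Acot4* went from 86.1, 64.9, 48.8 and 48.3 CPM to 178, 109.7, 193 and 129.8 CPM, higher in 4 of 4 by 1.29 ± 0.23 (adjusted p = 0.0266); without GRLKO replicate 1 or 3 or WT replicate 2, 3 or 4 the adjusted p was 0.0634 to 0.0824. The 2 called members compare with 2.08% of all genes. *Acot2* read 3.75, 1.65, 1.98 and 2.24 CPM in WT and 7.23, 4.04, 11.6 and 4.85 CPM in GRLKO livers, without overlap and without a call (1.52 ± 0.38, adjusted p = 0.0904). Hepatocyte markers were lower in these GRLKO livers too, 4 of 7 called, with sums of 87169 and 73241 CPM, and their part was not tested.

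At ZT16 on control feeding 2 members were called, against 1.98% of all genes. *Acot3* read 9.59, 8.16, 2.7 and 12.8 CPM in WT and 57.5, 28.4 and 51.3 CPM in GRLKO livers (2.45 ± 0.42, adjusted p = 0.0317). *Acot13* read 40.8, 36.0, 37.3 and 39.1 CPM and 61.3, 54.3 and 51.4 CPM (0.54 ± 0.08, adjusted p = 0.0171). All GRLKO livers were above all WT livers for both genes. Without WT replicate 2, the library with pancreas RNA, neither was called, at adjusted p of 0.0939 and 0.0543, while the log2 fold changes stayed at 2.44 and 0.51, and both calls were also lost without GRLKO replicate 2, at 0.0575 and 0.0598. The call of *Acot3* was also lost without WT replicate 1 (0.0659), GRLKO replicate 1 (0.098) or GRLKO replicate 3 (0.0982).

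At ZT0 on control feeding 1 member was called beside 0.536% of all genes: *Acot3*, at 2.32, 3.84 and 3.13 CPM in WT and 14.9, 10.3 and 8.52 CPM in GRLKO livers. The groups did not overlap (1.85 ± 0.28, adjusted p = 0.0476), and leaving out any 1 of the 6 libraries, WT replicates 1 to 3 and GRLKO replicates 1 to 3, ended the call, at adjusted p of 0.0729 to 0.17. At ZT0 5 members had an unadjusted p under 0.05 and DESeq2 called 5, and the groups did not overlap for *Acot1*, *Acot2*, *Acot4* and *Acot13* either. The 0.536% counts edgeR calls only and is no background for these counts. At the 3 remaining times edgeR called 0 members. The backgrounds given for them are edgeR shares only, not those of an unadjusted p or of DESeq2. At ZT4 the background was 0.195%, 4 members had an unadjusted p under 0.05 and DESeq2 called 2. At ZT8 the background was 1.43%, with 3 members under an unadjusted p of 0.05 and 1 called by DESeq2. At ZT20 the background was 0.42%, with 4 members under that p, 2 called by DESeq2 and 1 by edgeR without WT replicate 3. That library was high for *Acot3*, which read 1.29, 1.36, 10.3 and 1.98 CPM in WT and 23.3, 29.2 and 14.9 CPM in GRLKO livers (2.59 ± 0.70, adjusted p = 0.211).

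The members without a call in any of the 12 genotype comparisons were *Acot9* and *Acot12*. The log2 fold change of *Acot12* ran from -0.29 at ZT12 on restriction to 0.15 at ZT4 on control feeding. *Acot9* ran from -0.20 at ZT8 to 0.93 at ZT20, both on restriction; at ZT20 every GRLKO liver (4.83, 5.73 and 3.85 CPM) was above every WT liver (2.57, 3.2 and 1.96 CPM), at an adjusted p of 0.125. *Acot2* had a higher mean in GRLKO livers at all 6 times on both diets, from 0.51 at ZT4 to 1.78 at ZT12 on restriction and from 0.81 at ZT8 to 1.52 at ZT12 on control feeding, with calls at ZT8, ZT12 and ZT16 on restriction.

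A genotype effect called on 1 diet and not on the other is not thereby different, so the difference between diets (restriction minus control, both genotypes) was tested at each time; the batch goes with the diet here. At no time did edgeR call a member. The shares of all genes given here are edgeR calls only, not those of an unadjusted p or of DESeq2. At ZT12, with 1.01% of all genes called, 2 members had an unadjusted p under 0.05 and DESeq2 called 1: the difference was 0.56 ± 0.14 for *Acot13* (adjusted p = 0.0837) and -1.91 ± 0.58 for *Acot3* (adjusted p = 0.145), and without the control-fed GRLKO replicate 3 edgeR called 1 member. At ZT16, with 0.234% of all genes called, 4 members had an unadjusted p under 0.05 and DESeq2 called 1. The values there were 0.58 ± 0.11 for *Acot13* (adjusted p = 0.0522), -1.46 ± 0.50 for *Acot3* (0.322), -1.17 ± 0.37 for *Acot1* (0.283) and -0.77 ± 0.32 for *Acot11* (0.422), and 1 member was called without the control-fed GRLKO replicate 1. At ZT20, with 0% of all genes called, 1 member had an unadjusted p under 0.05 and DESeq2 called 1; *Acot1* differed by -2.52 ± 0.59 (adjusted p = 0.41). At ZT0 the background was 0%, with 1 member under an unadjusted p of 0.05 and 0 called by DESeq2. ZT4 gave the same counts on a background of 0%. At ZT8, on a background of 0.081%, 0 members were under that p and DESeq2 called 0.

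**Figure D2:**
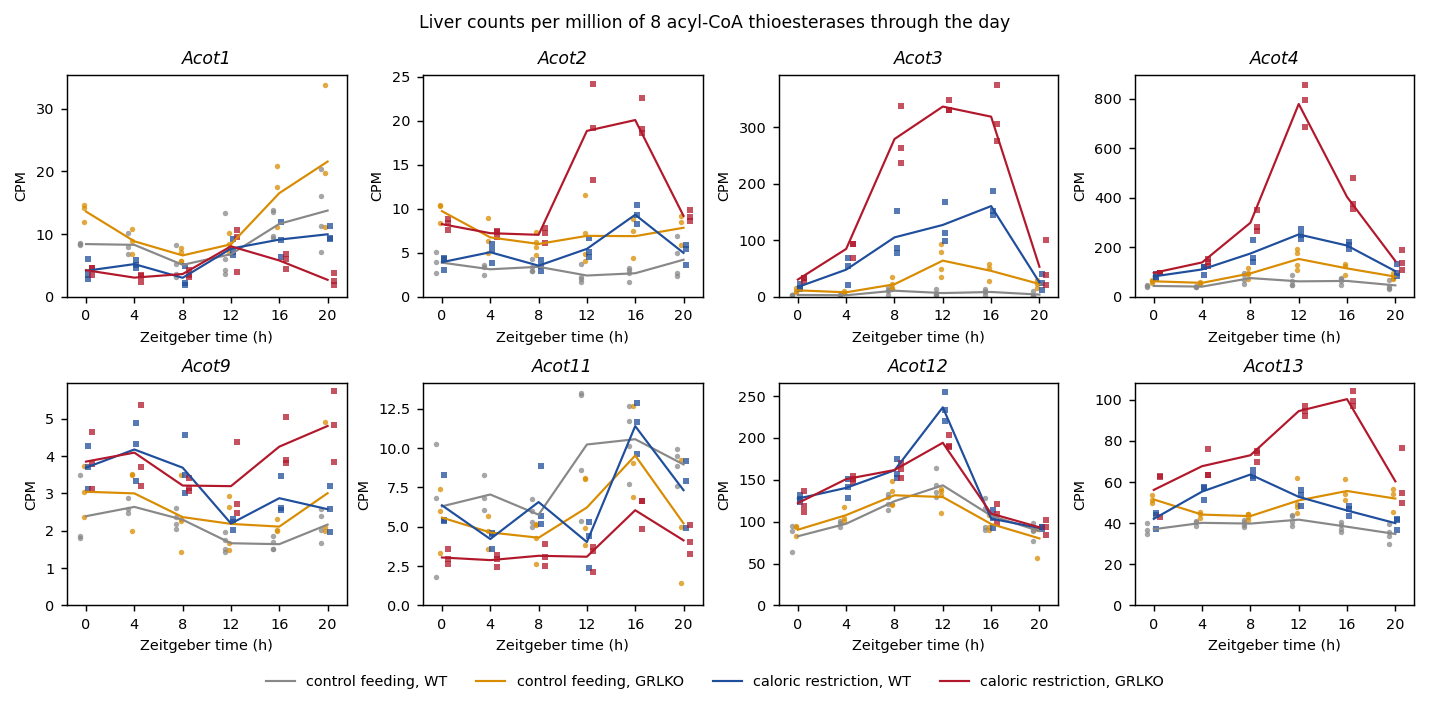
CPM (vertical axes, from 0) of each member against zeitgeber time in hours, 1 point a liver (3 or 4 a group) and lines through the group means; points are shifted sideways for legibility. *Acot4* in calorie-restricted GRLKO livers peaks at 779 CPM at ZT12, where calorie-restricted WT livers reach 252 CPM.

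Through the day, the means of *Acot4* in calorie-restricted GRLKO livers ran from 96.3 ± 1.47 CPM at ZT0 (SD, n = 3) to 779 ± 86.5 CPM at ZT12. In calorie-restricted WT livers they ran from 81.9 ± 7.0 to 252 ± 20.4 CPM between the same times. Rhythm was tested with JTK_CYCLE, a rank test for a 24 h wave, and its amplitude, the distance from midline to peak, was taken from a cosine fit to log2 CPM. On restriction, 4 members were rhythmic in WT livers, beside 21.7% of all genes: *Acot3* (amplitude 1.64, adjusted p = 0.0072) and *Acot4* (0.82, 0.000121) with phase ZT12, and *Acot12* (0.50, 0.00545) and *Acot13* (0.32, 0.000121) with phase ZT8. In GRLKO livers 5 were rhythmic, beside 19.8% of all genes. These were *Acot3* (1.94, 0.00177), *Acot4* (1.44, 3.68e-05) and *Acot13* (0.41, 0.0475) with phase ZT12, *Acot12* (0.46, 0.00448) with phase ZT8 and *Acot2* (0.77, 0.00448) with phase ZT16. With 2 livers a time point, after leaving out all libraries numbered 1, 2 or 3 in turn, 2 members were called each time in WT and 1 each time in GRLKO livers. Fewer livers weaken the test for every gene, and no share of all genes is given for these smaller sets.

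Rhythm was not tested between diets. On control feeding in WT livers 3 were called beside 27.3% of all genes: *Acot12* with phase ZT12 (amplitude 0.39, adjusted p = 0.000416), *Acot1* with phase ZT20 (0.66, 0.0166) and *Acot9* with phase ZT4 (0.32, 0.0271). In GRLKO livers 5 were called beside 22.7%: *Acot1* with phase ZT20 (0.78, 0.000595), *Acot3* with phase ZT16 (1.45, 0.00689), *Acot4* with phase ZT12 (0.68, 0.00417), *Acot12* with phase ZT8 (0.38, 0.0025) and *Acot13* with phase ZT20 (0.17, 0.00877). Without the libraries numbered 2, 3 or 4 the WT count was 1 each time, and without those numbered 1, 2 or 3 the GRLKO count was 1, 2 and 3. *Acot11* was not called by JTK_CYCLE in any of the 4 groups; its adjusted p ran from 0.075 to 0.616.

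Rhythm was compared between genotypes with an F test of genotype by cosine and sine of time. On restriction it called 2 members, *Acot4* (adjusted p = 0.0219) and *Acot13* (0.0278), where 0.659% of all genes were called. Amplitude rose from 0.82 in WT to 1.44 in GRLKO livers for *Acot4*, while the fitted peak of *Acot13* lay at ZT 8.23 in WT and at ZT 12.7 in GRLKO livers. Without the libraries numbered 1, 2 or 3, 0 members were called by this limma test, with adjusted p for *Acot4* of 0.244, 0.514 and 0.163 and for *Acot13* of 0.284, 0.606 and 0.137. On control feeding 1 member was called beside 0.366% of all genes, *Acot13* (adjusted p = 0.0193) with amplitudes of 0.11 in WT, where its rhythm was not called (adjusted p = 0.206), and 0.17 in GRLKO livers, and fitted peaks at ZT 9.17 and ZT 17.8. That call was lost without the libraries numbered 1, 2 or 4, at 0.391, 0.356 and 0.141.

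Counted as a sum, which does not depend on how reads were divided among these 4 genes, *Acot1* to *Acot4* rose on caloric restriction in the diet experiment by 1.53 ± 0.24 (adjusted p = 0.00249). The sum still depends on reads shared with loci outside it. In *Acot5* occur 13.1% of the words of *Acot1* and 8.76% of those of *Acot3*. In GRLKO livers on restriction the sum was higher at ZT12 by 1.54 ± 0.13 (0.00073) and at ZT16 by 0.95 ± 0.10 (0.00303), and on control feeding at ZT0 by 0.72 ± 0.10 (0.0438) and at ZT12 by 1.57 ± 0.28 (0.0239). It did not pass at ZT8 on restriction (1.05 ± 0.22, 0.0569) or at ZT16 on control feeding (1.08 ± 0.22, 0.0549), where *Acot3* had been called. *Acot4* made up the largest part of the sum: 81.1 ± 4.7% (SD) in control-fed WT livers at ZT12 and 68.1 ± 1.54% in calorie-restricted GRLKO livers. The part of *Acot3* was 7.61 ± 2.58% in control-fed WT, 26.7 ± 3.92% in control-fed GRLKO, 32.0 ± 4.4% in calorie-restricted WT and 29.6 ± 2.07% in calorie-restricted GRLKO livers at ZT12.

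Of 9 other thioesterase genes 6 were tested in the diet experiment, where 2 rose and 2 fell beside 47.1% of all genes called: *Them4* rose by 1.53 ± 0.12 (adjusted p = 0.000237), from 13.3, 15.1 and 16.5 CPM to 37.7, 42.5 and 49.3 CPM, and *Acot7* by 0.53 ± 0.09 (adjusted p = 0.00301). The list had a median log2 fold change of -0.13 beside 0.00 over all tested genes. In edgeR none of its 6 tested genes was called under corticosterone (8.11% of all genes) or for genotype on restriction at ZT12 (15.3%). *Acot5*, also in the cluster, was at 0 in all control-fed livers of the time series and at 1.16, 1.19 and 0.814 CPM in calorie-restricted GRLKO livers at ZT16, and *Acot6* was highest at that time too, 3.76, 3.19 and 7.22 CPM in WT and 6.24, 7.62 and 6.2 CPM in GRLKO livers.

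Acyl-CoA synthetases, which make the substrate of the thioesterases, had 2 genes up and 6 down of 15 tested on caloric restriction, where 47.1% of all genes were called. *Acsl3* rose by 1.60 ± 0.12 (adjusted p = 0.000192), and *Acsf3* (-1.64 ± 0.34), *Acsf2* (-1.12 ± 0.09) and *Acsm1* (-0.73 ± 0.21) fell. In calorie-restricted GRLKO livers at ZT12, 3 of 14 were higher and 1 lower than in WT, beside 15.3% of all genes: *Acsl3* (0.86 ± 0.08), *Acsf2* (0.68 ± 0.09), *Acsm5* (0.55 ± 0.08) and, lower, *Acsm3* (-0.41 ± 0.10). Under corticosterone *Acsm5* rose (0.65 ± 0.15) and *Acsl3* fell (-0.62 ± 0.14), of 14 tested and beside 8.11% of all genes.

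Of 14 tested genes of coenzyme A metabolism, 3 rose and 6 fell on caloric restriction, against 47.1% of all genes called. *Nudt7*, a peroxisomal hydrolase that degrades CoA, fell by 4.39 on the log2 scale (adjusted p = 3.33e-05), from a mean of 830.3 to 39.7 CPM. The pantetheinase gene *Vnn1* (-1.71 ± 0.30) and *Ppcs* (-0.62 ± 0.10) also fell, and *Pank3*, a pantothenate kinase of CoA synthesis, rose (0.90 ± 0.09). In calorie-restricted GRLKO livers at ZT12, 2 of 14 were called, where 15.3% of all genes were: *Nudt7* (1.32 ± 0.25) and *Acbd5* (0.44 ± 0.10), both higher than in WT. *Vnn1* was higher in GRLKO livers at ZT16 (2.30 ± 0.29) and ZT20 (2.44 ± 0.23) on restriction and at ZT0 (2.39 ± 0.28) and ZT12 (1.47 ± 0.26) on control feeding. Under corticosterone, with 8.11% of all genes called, 1 of 14 rose, *Pank1* (0.49 ± 0.11), and 1 fell, *Acbd4* (-0.51 ± 0.08).

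PPARα and 20 of its established targets in fatty acid oxidation were followed as well. On caloric restriction 5 of 21 rose and 6 fell, beside 47.1% of all genes called, with *Pdk4* (5.53 ± 0.77) and *Cyp4a14* (4.60 ± 0.41) higher and *Fabp1* (-1.75 ± 0.15) and *Cyp4a32* (-1.69 ± 0.18) lower. The median was -0.05, against 0.00 over all tested genes. In calorie-restricted GRLKO livers at ZT12, 5 of 21 were higher and 1 lower than in WT, beside 15.3% of all genes, with a median of 0.10 against -0.00 over all genes: *Acaa1b*, a peroxisomal thiolase, by 2.02 ± 0.17, *Aldh3a2* by 1.22 ± 0.10, *Ehhadh* by 0.88 ± 0.13 and, lower, *Angptl4* with -1.79 ± 0.12. At ZT16, where 4.54% of all genes were called, 6 of 20 were higher and 0 lower in edgeR, among them *Acaa1b* (1.86 ± 0.09), *Fabp1* (1.45 ± 0.22) and *Aldh3a2* (1.01 ± 0.10). Under corticosterone, beside 8.11% of all genes, 2 of 20 rose, *Angptl4* (2.25 ± 0.17) and *Cpt1a* (0.83 ± 0.17), and 2 fell, *Pdk4* (-1.37 ± 0.24) and *Plin2* (-0.86 ± 0.20).

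Markers of other cells were followed in the diet experiment as well, where 47.1% of all genes were called. Of 5 endothelial markers 4 rose on restriction, their sum going from 125 to 186 CPM with *Clec4g* the most abundant. Of 7 hepatocyte markers 3 rose (87491 to 157562 CPM), of 5 stellate markers, led by *Dcn*, 2 rose and 1 fell (185 to 263 CPM), and of 7 Kupffer and myeloid markers 1 fell (126 to 114 CPM). Cholangiocyte markers, led by *Sox9*, summed to 4.27 and 8.66 CPM, adipocyte markers, led by *Fabp4* with *Plin1* at 0 in all 90 libraries, to 4.14 and 9.0 CPM, and lymphocyte markers, led by *Cd79a*, to 1.97 and 0.524 CPM. Under corticosterone, with 8.11% of all genes called, 2 of 7 Kupffer and myeloid markers rose, with sums of 81.1 and 115 CPM. What part any of these had in the values of the members was not tested.

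Across the time series, likeness was ranked among genes of at least 5 CPM by the lower of the correlations on the 2 diets, so that the order within 1 diet can differ. *Acot3* and *Acot4* were each other's most similar gene, with Pearson correlations of log2 CPM of 0.915 and 0.971 over the 36 calorie-restricted and the 42 control-fed libraries, which share genotype and time as sources of variation; the 2 genes also share reads. After *Acot4*, the genes most like *Acot3* were *Slc16a5* (0.849 and 0.754) and the family member *Acot13* (0.753 and 0.762), and those most like *Acot4* were *Susd1* (0.824 and 0.794) and *Acadl* (0.78 and 0.784). *Acot2* was most like *Ermp1* (0.795 and 0.762), *Gas6* (0.713 and 0.741) and *Plin2* (0.706 and 0.732). For *Acot12* the 3 genes were *Slc25a16* (0.898 and 0.895), *Mia2* (0.886 and 0.889) and *Cyp2e1* (0.878 and 0.894), and for *Acot13* they were *Galk1* (0.767 and 0.782), *Hamp2* (0.784 and 0.761) and *Cyp2a4* (0.811 and 0.76). *Acot1*, *Acot9* and *Acot11* had weaker matches, led by *Elmod3* (0.651 and 0.74), *Anxa5* (0.671 and 0.647) and *Cdc37l1* (0.684 and 0.675). *Acot1* correlated with *Acot3* at 0.0631 and 0.243 although the 2 share cluster and sequence.

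The promoters of the 4 cluster genes are shown because these genes share coding sequence and differed in their calls. RefSeq (GRCm38.p6) gave a window for 7 of the 8 members; *Acot13* was not among them. In the 250 bases before each gene's start in RefSeq, which for *Acot1*, *Acot11* and *Acot12* is not the GENCODE start used above, both strands were searched for the glucocorticoid receptor core ACANNNTGT, the forkhead core TGTTTAC, the nuclear receptor motif AGGTCA and the E-box CACGTG, held by 5.84%, 3.17%, 14% and 6.02% of the 32851 promoter windows of the same length. The window of *Acot1* holds 1 receptor core, that of *Acot4* 1 nuclear receptor motif and 1 E-box, and that of *Acot12* 1 nuclear receptor motif; those of *Acot2*, *Acot3*, *Acot9* and *Acot11* hold none of the 4. Such letter matches describe the windows only. Global alignment of these windows gave identities of 39.2% for *Acot3* with *Acot4* and 39.9% for *Acot1* with *Acot2*, far from those of the coding sequences. The 4 windows follow from 5′ to 3′ on the gene's strand, with matches in capitals.
*Acot1* (chr12:84009252-84009501, plus strand): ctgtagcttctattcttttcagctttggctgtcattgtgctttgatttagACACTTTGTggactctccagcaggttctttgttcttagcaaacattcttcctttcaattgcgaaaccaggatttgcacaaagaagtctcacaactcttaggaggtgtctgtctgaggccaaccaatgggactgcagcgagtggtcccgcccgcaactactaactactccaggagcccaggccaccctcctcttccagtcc
*Acot2* (chr12:83987611-83987860, plus strand): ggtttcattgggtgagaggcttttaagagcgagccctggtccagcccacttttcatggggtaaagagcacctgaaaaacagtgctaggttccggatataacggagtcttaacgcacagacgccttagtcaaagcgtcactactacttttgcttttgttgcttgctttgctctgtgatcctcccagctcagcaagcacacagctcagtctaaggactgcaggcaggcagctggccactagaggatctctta
*Acot3* (chr12:84051894-84052143, plus strand): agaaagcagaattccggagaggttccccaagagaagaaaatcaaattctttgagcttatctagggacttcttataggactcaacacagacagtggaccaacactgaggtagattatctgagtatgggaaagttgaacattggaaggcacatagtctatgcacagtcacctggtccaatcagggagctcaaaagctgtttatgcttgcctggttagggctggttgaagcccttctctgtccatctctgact
*Acot4* (chr12:84038129-84038378, plus strand): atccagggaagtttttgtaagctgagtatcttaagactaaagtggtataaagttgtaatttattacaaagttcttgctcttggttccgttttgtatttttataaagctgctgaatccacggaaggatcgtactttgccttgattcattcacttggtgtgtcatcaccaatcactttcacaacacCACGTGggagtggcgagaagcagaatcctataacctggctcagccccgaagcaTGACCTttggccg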

How the data were processed

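PolyA RNA of 90 mouse livers was sequenced. The authors used FastQC 0.11.9 for read quality, Salmon 1.8.0 for quantification and tximport 1.18.0 for gene sums, and deposited estimated counts for 27654 Ensembl IDs in 4 tables. Another table of 6 columns, variance-stabilized values of the corticosterone libraries, was not used. IDs were mapped to symbols with GENCODE M21, and 410 IDs without a symbol held 0.107% of counts. Library totals ran from 10057544 to 39492146 counts. Counts were rounded, normalized by TMM, filtered with filterByExpr (minimum count 10) and tested in R 4.3.3 by the quasi-likelihood F test of edgeR 4.0.16, each comparison within its own groups. The SE of a log2 fold change was calculated back from this test, as its absolute value divided by the square root of F. Rhythm used JTK_CYCLE and limma 3.58.1 on variance-stabilized values (DESeq2 1.42.0) with a period of 24 h. Alternatives were DESeq2, its size factors, no filter, 1 fit per diet, a replicate block, *Acot1* to *Acot4* summed, leaving out each replicate, and for rhythm an edgeR F test of time point, log2 CPM and a minimum amplitude. The tests were tried on simulated data. Members and lists were chosen with earlier results of these data known. From each list up to 4 genes were named per comparison, those called with the largest change among genes of at least 5 CPM.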

Additional observations from a re-analysis of the deposited data

Results flagged for a closer look

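In control-fed WT livers at ZT20, replicate 3 held 10.3 CPM of *Acot3*, apart from the other 3 livers at 1.29 to 1.98 CPM by Dixon's ratio. This was 1 of 48 sets of 4 values looked at, and chance sets apart about 1 in 20 groups.

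The effect of caloric restriction at ZT12 differed from that of corticosterone, by a test of the difference itself, for *Acot1* (2.78 on the log2 scale), *Acot3* (3.64), *Acot4* (1.00), *Acot11* (-1.25) and *Acot13* (0.42). The daily rhythm differed between WT and GRLKO livers on restriction for *Acot4* (adjusted p = 0.0219) and *Acot13* (adjusted p = 0.0278), and on control feeding for *Acot13* (adjusted p = 0.0193). Leaving out any 1 replicate number ended both calls on restriction, and 8 of 12 fits with 1 library left out lost the diet against corticosterone call of *Acot4*. On control feeding the rhythm call of *Acot13* was also lost without most replicate numbers, as given above.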

How the results depend on the processing

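The limits first. Groups hold 3 or 4 livers, diet goes with the batch of libraries in the time series, reads of *Acot1* to *Acot4* are divided by the counting step, and with 1 liver left out many calls near the threshold were lost: of 198 left-out values of called members, 152 kept the call, 46 did not, and 0 changed direction. DESeq2, its size factors and no filter on low counts each kept 27 of 27 member calls. The replicate block kept 16 of 22, 1 fit over all libraries of a diet 15 of 17, and summing *Acot1* to *Acot4* 12 of 16, where the sum at ZT20 on restriction, mostly *Acot4*, had the opposite sign to *Acot1* (0.57) and was not called. The labels tie replicates by number only. In 0 of 14 comparisons did all equally numbered pairs correlate above 0.1, and r ran from -0.271 to 0.216. On control feeding all such pairs were positive at ZT0 (0.0631 to 0.185) and at ZT16 (0.0155 to 0.188). With so few libraries this rule cannot show that they were unpaired.

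Counts of members called changed as follows. Only for the F test of time point is the count over all genes given, so the other counts are no result about the family. DESeq2 gave 1 under corticosterone; for genotype on restriction 3 at ZT0, 4 at ZT8 and 3 at ZT20; on control feeding 5 at ZT0, 2 at ZT4, 1 at ZT8, 4 at ZT16 and 2 at ZT20; and 1 each for the difference between diets at ZT12, ZT16 and ZT20. Without a filter the corticosterone count was 1. In 1 fit over all libraries of a diet the genotype counts were 1 at ZT0, 4 at ZT8 and 4 at ZT20 on restriction and 2 at ZT0, 4 at ZT12, 4 at ZT16 and 3 at ZT20 on control feeding. With the replicate block they were 0 at ZT0, 1 at ZT12 and 0 at ZT16 on control feeding; on restriction the block also ended the calls of *Acot2* at ZT8 (adjusted p = 0.0944) and *Acot11* at ZT16 (0.109). An edgeR F test of time point called 8 members and 8123 of all genes in WT livers on restriction (JTK_CYCLE 4 and 4044), 7 and 7713 in GRLKO livers (5 and 3751), and on control feeding 3 and 6244 in WT (3 and 5154) and 5 and 5231 in GRLKO livers (5 and 4245).

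Leaving out 1 library at a time, counts ran from 5 to 6 for diet, 0 to 1 for corticosterone and 4 to 6 for their difference. For genotype on restriction they ran from 0 to 3 at ZT8, 4 to 4 at ZT12, 3 to 5 at ZT16 and 0 to 1 at ZT20, and on control feeding from 0 to 0 at ZT0, 1 to 2 at ZT12, 0 to 2 at ZT16 and 0 to 1 at ZT20. For the difference between diets they ran from 0 to 1 at ZT12 and at ZT16. Leaving out 1 replicate number at a time, rhythm counts ran from 2 to 2 in WT and 1 to 1 in GRLKO livers on restriction and from 1 to 2 in WT and 1 to 5 in GRLKO livers on control feeding, and counts of rhythm differences from 0 to 0 on restriction and 0 to 1 on control feeding. No share of all genes is given for the fits with libraries left out, so their counts are no result about the family. Rhythm on log2 CPM, or with a minimum amplitude, changed no count.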
